A study of Rattus norvegicus with 8 samples.

Results

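The 3 genes described here encode chains of hemoglobin: Hbb-b1 (ENSRNOG00000047098, the adult major beta chain), Hba2 (ENSRNOG00000047321, an alpha chain) and LOC100134871 (ENSRNOG00000061299, a beta globin). They were taken by their identifiers from the 32623 genes of the count table, and all 3 were among the 16988 genes with enough counts to be tested. The genes were selected on the comparison of CCI females with naïve females, in which their counts are far lower after injury, so their values in that comparison are given as a description without a test.

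RNA was measured in dorsal root ganglia (DRGs) of adult, gonadally intact Sprague-Dawley rats, in 4 groups of 2 rats: naïve and CCI males, and naïve and CCI females. CCI, or chronic constriction injury, is a loose ligation of the sciatic nerve that produces lasting pain behavior, and tissue was taken 14 days later. Each library came from 1 rat and held its pooled ganglia from the injured side at levels L4 to L6. The naïve rats had no surgery and no sham operation, the estrus stage of the females was not recorded, and no flushing of blood from the tissue is described in the methods. Total counts ran from 39489103 in CCI female rat 1 to 60818457 in CCI male rat 1. The tissue label was checked with sensory neuron genes, of which 8 of 14 had a symbol here. Their summed level was 18268 to 30565 CPM, that is, counts per 1000000 counts of a library after TMM scaling, in the 8 libraries.

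Hemoglobin carries oxygen in red blood cells and is built from a pair of alpha chains and a pair of beta chains, each holding a heme group. Maturing red cells transcribe these genes heavily, and the RNA persists for a time in young red cells (reticulocytes) after the nucleus is lost. In a solid tissue such as the DRG, hemoglobin RNA is therefore often read as a sign of the blood in the sample, although some neurons have been described as making hemoglobin too. In bulk libraries such as these, fewer blood cells and less RNA per blood cell cannot be told apart.

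The promoters are shown because the 3 genes moved together between libraries. The 120 bases before each transcription start were taken from RefSeq (build GRCr8, all on the minus strand) and are printed 5′ to 3′. Capitals mark CACCC, the CCAAT box and the TATA box (TATAAA), each searched on both strands.
Hbb-b1, chr1:167643521-167643640: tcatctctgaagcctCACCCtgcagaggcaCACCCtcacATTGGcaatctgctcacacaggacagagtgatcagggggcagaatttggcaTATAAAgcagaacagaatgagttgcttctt
LOC100134871, chr1:167650236-167650355: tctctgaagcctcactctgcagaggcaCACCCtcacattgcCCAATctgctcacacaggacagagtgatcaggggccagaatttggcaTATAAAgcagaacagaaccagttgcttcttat
Hba2, chr10:15829139-15829258: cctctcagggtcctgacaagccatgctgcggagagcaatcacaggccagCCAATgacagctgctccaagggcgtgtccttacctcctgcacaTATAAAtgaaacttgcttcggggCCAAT

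The windows of the beta genes were identical at 112 of 120 aligned bases (93.3%), and each shared 78 of 120 with that of Hba2 (65.0%). All 3 windows held a TATAAA, found in 6.66% of all 33469 RefSeq promoter windows of the same length. CCAAT occurred 1 time in each beta window and 2 times in that of Hba2, and in 19.9% of all windows. The second Hba2 match ends the window, after its TATAAA, so it is given as a match of letters only. CACCC occurred 2 times upstream of Hbb-b1, 1 time upstream of LOC100134871 and not in the Hba2 window, against 29.5% of all windows. No GATA (31.4% of all windows) was found in these stretches. RefSeq names LOC100134871 as Hbbl1 and Hba2 as Hba-a2. The beta genes lie on chromosome 1 and Hba2 on chromosome 10.

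Hemoglobin RNA separated the libraries into 3 with high levels and 5 with low levels, and this split did not follow the groups. Hbb-b1 stood at 8.60 and 60.4 CPM in the naïve males 1 and 2, at 15.8 and 8.69 CPM in the CCI males, at 107 and 149 CPM in the naïve females, and at 11.4 and 12.9 CPM in the CCI females. Both naïve females and naïve male 2 were high, while naïve male 1 had the lowest value of all. Hba2 stood at 17.4 and 199 CPM in the naïve males 1 and 2, at 36.0 and 34.6 CPM in the CCI males, at 172 and 272 CPM in the naïve females, and at 22.6 and 25.0 CPM in the CCI females. Here naïve male 2 lay between the naïve females. LOC100134871 stood at 9.92 and 140 CPM in the naïve males 1 and 2, at 24.2 and 25.0 CPM in the CCI males, at 238 and 343 CPM in the naïve females, and at 29.2 and 33.5 CPM in the CCI females. Naïve male 1 was again the lowest library, below every CCI rat.

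**Figure D1:**
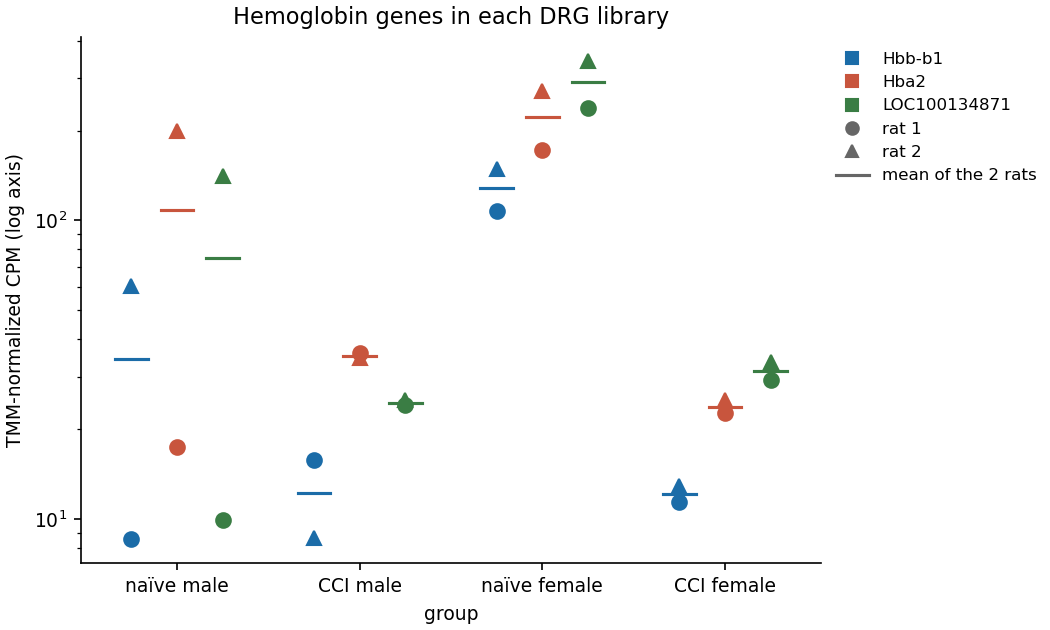
TMM-normalized CPM (log axis) of Hbb-b1, Hba2 and LOC100134871 in each group, with circles for rat 1, triangles for rat 2 and a bar at the mean of the 2 rats. The naïve males lie far apart (Hbb-b1 at 8.60 and 60.4 CPM), while in each other group the rats lie closer together, up to the 1.82-fold gap of Hbb-b1 in CCI males.

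As a share of all counts the 3 genes were small in every library. They held 0.00377% (95% Clopper-Pearson interval 0.00360% to 0.00394%) of naïve male 1 and 0.0426% (0.0421% to 0.0432%) of naïve male 2. The shares were 0.00729% and 0.00662% in the CCI males, 0.0515% and 0.0787% in the naïve females, and 0.00620% and 0.00681% in the CCI females. These intervals cover counting error only. The naïve males did not overlap within that error, so the gap between them exceeded counting error.

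The spread between rats of a group differed strongly among groups. Between naïve males, rat 2 exceeded rat 1 by 7.02-fold for Hbb-b1 (counting interval 6.36 to 7.77), by 11.4-fold for Hba2 (10.7 to 12.2) and by 14.1-fold for LOC100134871. A difference between the naïve males at least as large as that of Hbb-b1 was seen in 315 of 16988 genes (1.85%), and as large as that of Hba2 in 198 (1.17%). In the naïve females the rats differed by 1.39-fold for Hbb-b1, 1.58-fold for Hba2 and 1.44-fold for LOC100134871. In the CCI females these differences were 1.13-fold, 1.11-fold and 1.15-fold. In the CCI males Hbb-b1 differed by 1.82-fold, a gap reached by 6.28% of genes tested, while Hba2 and LOC100134871 differed by 1.04-fold and 1.03-fold. The mean level of Hbb-b1 was 128 ± 29.3 CPM (SD, n = 2) in naïve females, 34.5 ± 36.6 in the naïve males, 12.2 ± 5.02 in the CCI males and 12.2 ± 1.08 in the CCI females. For Hba2 these means were 222 ± 70.2, 108 ± 128, 35.3 ± 1.03 and 23.8 ± 1.72 CPM. For LOC100134871 they were 290 ± 73.9, 75.1 ± 92.2, 24.6 ± 0.577 and 31.4 ± 3.05 CPM, with the CCI females above the CCI males. Among neighbours in these orders, naïve females and naïve males, and naïve males and CCI males, did not pass the tests given next.

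In males, the comparison of CCI with naïve rats asked whether injury changed hemoglobin RNA, and the answer depended on which naïve male was used. The log2 fold change (CCI minus naïve) was −1.50 ± 0.906 (SE) for Hbb-b1, −1.62 ± 1.05 for Hba2 and −1.62 ± 1.12 for LOC100134871. The quasi-likelihood test of edgeR, adjusted over all genes by the method of Benjamini and Hochberg, gave an adjusted p of 0.251, 0.279 and 0.309. A gene was called at an adjusted p below 0.05 with an absolute log2 fold change above 0.5. None of the 3 genes was called and 0 of 3 had an unadjusted p below 0.05, whereas edgeR called 21.6% of all genes tested here. DESeq2 also called 0 of 3, beside 3439 of 16988 genes. The groups overlapped for all 3 genes, and they did not overlap for 72.8% of genes tested.

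Leaving out a naïve male moved the result in opposite directions. Without naïve male 1, the log2 fold changes were −2.31, −2.50 and −2.52 for Hbb-b1, Hba2 and LOC100134871, and edgeR called all 3 lower (adjusted p 0.0319, 0.0219 and 0.0219), beside 7.19% of all genes called lower. Without naïve male 2 they were 0.51, 1.02 and 1.31, and edgeR called Hba2 and LOC100134871 higher (adjusted p 0.00785 and 0.00677), beside 9.56% of all genes called higher. Hbb-b1 was not called there (adjusted p 0.346). Each of these fits rested on 1 naïve male, whose spread was assumed to equal that of the CCI males.

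**Figure D2:**
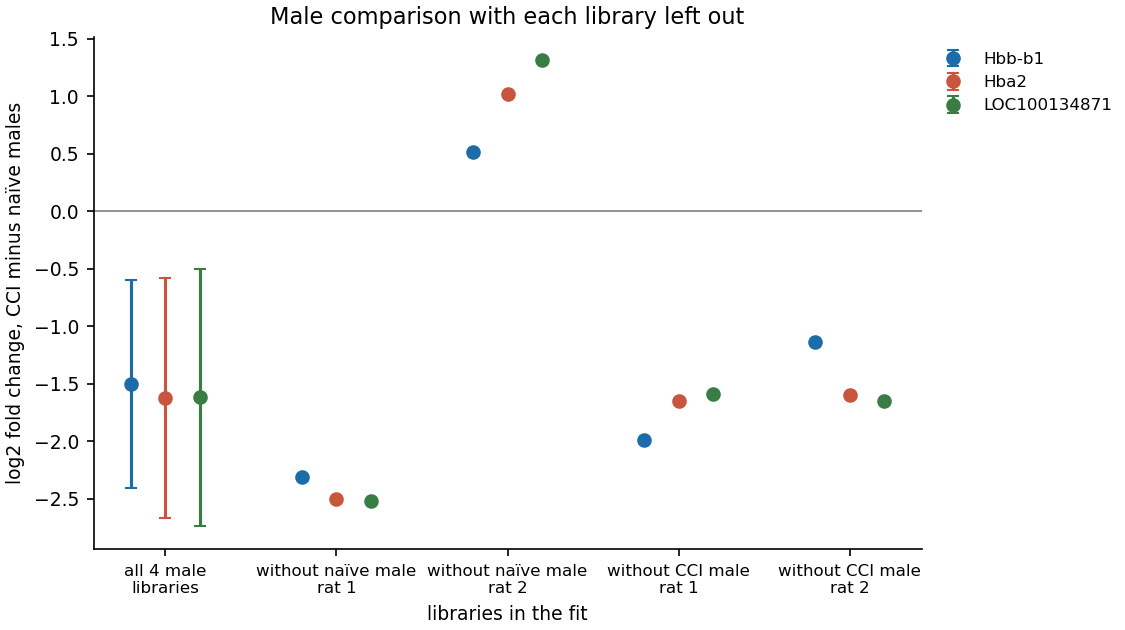
Fitted log2 fold change of CCI minus naïve males for the 3 hemoglobin genes with all 4 male libraries (bars, ± 1 SE) and with each male library left out in turn (points, no error drawn). All 3 values lie below 0 without naïve male 1 and above 0 without naïve male 2, for example −2.50 and 1.02 for Hba2.

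In females, the comparison by which the genes were selected, the CCI and naïve rats were widely separated. CCI minus naïve log2 fold changes were −3.41 ± 0.168 (SE) for Hbb-b1, −3.23 ± 0.208 for Hba2 and −3.22 ± 0.178 for LOC100134871. Naïve females thus had 10.6-fold, 9.38-fold and 9.32-fold more of these RNAs than CCI females. Over all genes tested, 5.69% were called in this comparison and the median log2 fold change was −0.018. When the spread was estimated over all 8 libraries, the fold changes were −3.40, −3.22 and −3.21. With each female library left out in turn, Hbb-b1 ran from −3.63 to −3.15.

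The interaction of sex and CCI asked whether the effect of injury differed between females and males. It shares its female libraries with the selection. The effect in females minus that in males was −1.91 ± 1.03 (SE, log2) for Hbb-b1, −1.60 ± 1.19 for Hba2 and −1.60 ± 1.25 for LOC100134871. By edgeR's test over all 8 libraries, adjusted p was 0.299, 0.444 and 0.467, so 0 of 3 genes were called. None of the 3 had an unadjusted p below 0.05 by edgeR, which called 1.59% of all genes. DESeq2 also called 0 of 3, beside 1585 of 16988 genes. Without naïve male 1, the values were −1.10, −0.72 and −0.70 for Hbb-b1, Hba2 and LOC100134871. Without naïve male 2, they were −3.91, −4.24 and −4.52, and edgeR called all 3 (adjusted p 0.0243, 0.0163 and 0.0135), beside 0.630% of all genes called below 0.

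Between naïve rats, the female comparison with males also depended on which naïve male was used. Female minus male log2 fold changes were 1.89 ± 0.844 (SE) for Hbb-b1, 1.04 ± 1.02 for Hba2 and 1.95 ± 1.10 for LOC100134871. By edgeR, 0 of 3 were called (adjusted p 0.235, 0.561 and 0.322), beside 0.0706% of all genes, and 0 of 3 had an unadjusted p below 0.05. DESeq2 also called 0 of 3, beside 1002 of 16988 genes. Naïve females lay above both naïve males for Hbb-b1 and LOC100134871 and overlapped them for Hba2, while 60.0% of genes tested did not overlap between these groups. Without naïve male 1, the values were 1.09, 0.16 and 1.05 for Hbb-b1, Hba2 and LOC100134871. Without naïve male 2, they were 3.90, 3.68 and 4.87, and edgeR called all 3 higher in females (adjusted p 0.00788, 0.0219 and 0.00787), beside 0.700% of all genes. In both of these fits the single naïve male left was assumed to vary like the naïve females. The naïve females are also part of the comparison that selected the genes.

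Between CCI rats, hemoglobin levels were low in both sexes and the 3 genes did not move as a unit. Hba2 was lower in CCI females than in CCI males by edgeR (log2 fold change −0.56 ± 0.080 SE, adjusted p 0.0441), beside 0.536% of all genes called lower. This call was lost with the spread estimated over all 8 libraries (edgeR, adjusted p 0.798). It was also lost without CCI female 1 or CCI female 2, fits that called fewer of all genes lower. LOC100134871 lay the other way, at 0.36 ± 0.090 (SE), with an edgeR adjusted p of 0.130. Hbb-b1 gave −0.0056 ± 0.264 (SE), with an edgeR adjusted p of 0.994. CCI females and CCI males did not overlap for Hba2 and LOC100134871, as for 51.2% of all genes tested. The CCI females are also part of the selecting comparison.

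Other globins of blood followed the same libraries. Of 13 further blood globin symbols, 3 had an identifier here: Hbb (beta), Hba1 (alpha) and Hba-a1 (alpha). Hbb stood at 54.6 and 542 CPM in the naïve males 1 and 2, at 104 and 77.5 CPM in the CCI males, at 607 and 866 CPM in the naïve females, and at 70.1 and 98.5 CPM in the CCI females. Hba1 stood at 45.2 and 538 CPM in the naïve males 1 and 2, at 87.6 and 93.6 CPM in the CCI males, at 425 and 684 CPM in the naïve females, and at 57.8 and 68.3 CPM in the CCI females. Hba-a1 had fewer reads, from 1.97 CPM in naïve male 1 to 23.9 CPM in naïve female 2. In each case naïve male 1 was lowest and naïve male 2 was in or near the range of the naïve females. In females their log2 fold changes were −3.14 ± 0.212 (SE) for Hbb, −3.15 ± 0.219 for Hba1 and −3.02 ± 0.210 for Hba-a1. In males they were −1.72 ± 1.01, −1.69 ± 1.06 and −1.59 ± 0.978 (edgeR, adjusted p 0.238, 0.268 and 0.259), and all 3 were called lower without naïve male 1, beside 7.19% of all genes. Together the 6 globins held 0.0144% of counts in naïve male 1 and 0.160% in naïve male 2, 0.0260% and 0.0235% in the CCI males, 0.156% and 0.241% in the naïve females, and 0.0190% and 0.0229% in the CCI females.

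Myoglobin (Mb), the oxygen store of muscle and the sole non-blood globin with an identifier here, had another pattern. It stood at 0.115 and 0.165 CPM in the naïve males, 4.90 and 4.68 CPM in the CCI males, 0.127 and 0.0946 CPM in the naïve females, and 0.0517 and 0.281 CPM in the CCI females. Mb was high in the CCI males, whose hemoglobin was low. By edgeR it rose in males after CCI (log2 fold change 5.08 ± 0.260 SE, adjusted p 0.00565). The fit without CCI male 1, in which no gene at all passed, could not judge this call. Of the 5 skeletal muscle genes with an identifier, Mb among them, 4 rose in males, beside 9.05% of all genes called higher. Their summed level was 63.6 and 68.3 CPM in the CCI males and 3.54 to 17.6 CPM in the other 6 libraries. It was 7.49 and 17.6 CPM in naïve males 1 and 2, so this sum also differed between them.

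Both red cell genes named for this purpose tracked the globins. Alas2, the red cell form of the enzyme that starts heme synthesis, stood at 1.49 and 22.3 CPM in the naïve males 1 and 2, at 3.65 and 3.51 CPM in the CCI males, at 15.9 and 24.5 CPM in the naïve females, and at 2.48 and 3.63 CPM in the CCI females. Slc4a1, the anion exchanger band 3 of the red cell membrane, stood at 0.306 and 8.82 CPM in the naïve males 1 and 2, at 1.15 and 1.49 CPM in the CCI males, at 6.83 and 10.2 CPM in the naïve females, and at 0.879 and 1.13 CPM in the CCI females. Naïve male 2 was inside the range of the naïve females for both genes. The naïve males differed by 14.9-fold for Alas2 and by 28.8-fold for Slc4a1, the latter with 16 counts in rat 1. In females, edgeR called both lower after CCI (log2 fold change −2.73 ± 0.254 SE for Alas2 and −3.09 ± 0.268 for Slc4a1, adjusted p 0.00153 and 0.00125). With the spread estimated over all 8 libraries these calls were lost (edgeR, adjusted p 0.110 for Alas2 and 0.120 for Slc4a1). In males neither was called (edgeR, −1.74 ± 1.14 and −1.80 ± 1.35, adjusted p 0.287 and 0.346).

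**Figure D3:**
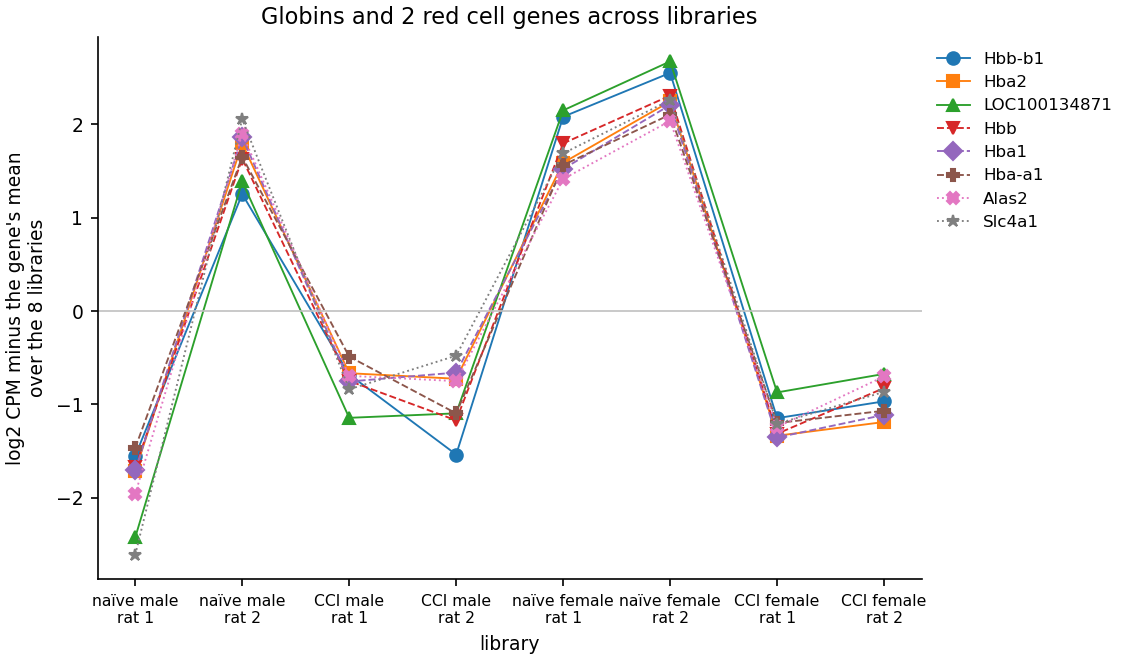
Log2 CPM of 6 globins, Alas2 and Slc4a1 in each library, minus that gene's mean over the 8 libraries, with lines only to link the points of a gene. All 8 genes are above their mean in naïve male 2 and both naïve females and below it in the other 5 libraries.

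Red cell genes as a whole moved less uniformly. Of 32 listed symbols, 7 had an identifier, and edgeR called 4 of the 7 in females after CCI, all lower, beside 340 of 16988 genes called lower: Alas2, Slc4a1, Nfe2 and Car2, the last pair named after their values were seen. Their median log2 fold change there was −0.64, against −0.018 over all genes. In males, 1 of 7 was called lower and 2 higher, beside 12.5% and 9.05% of all genes. Ank1 anchors the membrane skeleton and is also used outside blood. It had the highest female value (0.33 ± 0.091 SE, edgeR adjusted p 0.0606). In males it rose (0.74 ± 0.102 SE, edgeR adjusted p 0.00788), a call lost without CCI male 2. The fit without CCI male 1, in which no gene at all passed, could not judge it. The summed level of these 7 genes was 602 to 727 CPM, but Alas2, Slc4a1 and Nfe2 were a small part of it. In naïve female 2 they stood at 24.5, 10.2 and 1.65 CPM, against 262 CPM for Ank1 and 621 CPM for the sum. The narrow range of the sum therefore says little about red cell RNA. With the spread estimated over all 8 libraries, 2 of 7 were called lower in females, beside 307 of 16988 genes. Fewer of the 7 were also called without CCI female 1 or CCI female 2, fits in which few of all genes passed. Symbols in these lists came from the study's own lists of changed genes in these rats, so counts of calls are not independent evidence of a direction.

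Genes of hemoglobin clearance did not share the pattern. Of 11 symbols 2 had an identifier. Cd163, the macrophage receptor for hemoglobin bound to haptoglobin, and the sole macrophage gene of 12 with an identifier, stood at 2.08 and 2.15 CPM in the naïve males, 1.54 and 1.90 CPM in the CCI males, 3.64 and 5.25 CPM in the naïve females, and 5.71 and 5.96 CPM in the CCI females. It was above every male in all 4 females. By edgeR it was higher in CCI females than in CCI males (log2 fold change 1.77 ± 0.188 SE, adjusted p 0.0200). Lrp1, a receptor for heme bound to hemopexin and for many other ligands, was also higher in that comparison (0.58 ± 0.075 SE, edgeR adjusted p 0.0365), beside 0.524% of all genes called higher. Both calls were lost without CCI female 1 or CCI female 2, but few of all genes were called higher in those fits, so they could not judge these calls. After CCI, Cd163 gave 0.39 ± 0.207 in females and −0.29 ± 0.204 in males (edgeR adjusted p 0.260 and 0.310). Lrp1 gave 0.48 ± 0.079 in females (edgeR adjusted p 0.0128), just under the fold limit of a call.

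Some white cell genes moved with hemoglobin in several libraries. Ngp, neutrophilic granule protein, stood at 0.0765 and 2.05 CPM in the naïve males 1 and 2, at 0.360 and 0.227 CPM in the CCI males, at 2.60 and 6.22 CPM in the naïve females, and at 0.336 and 0.614 CPM in the CCI females. Cd79b, a part of the B cell receptor, stood at 0.0765 and 1.36 CPM in the naïve males 1 and 2, at 0.343 and 0.454 CPM in the CCI males, at 2.75 and 2.72 CPM in the naïve females, and at 0.103 and 0.461 CPM in the CCI females. Both were high in naïve male 2 and the naïve females and lowest in naïve male 1, where each had 4 counts. Spib, a transcription factor of B cells, ran from 0.191 CPM in naïve male 1 to 3.45 CPM in naïve female 2, with 1.23 CPM in naïve male 2. Np4, a neutrophil defensin named after its values were seen, had 2 counts in naïve male 1 and 76 in naïve male 2.

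By list, 3 of 20 neutrophil granule genes had an identifier, and their summed level was 0.287 and 3.92 CPM in the naïve males, 0.908 and 0.867 CPM in the CCI males, 6.15 and 12.3 CPM in the naïve females, and 1.09 and 1.48 CPM in the CCI females. EdgeR called 2 of the 3 lower in females after CCI, a comparison in which 340 of 16988 genes were called lower. The third, Fcnb, a lectin of neutrophils, stood at 0.172 and 0.477 CPM in naïve males 1 and 2, at 0.514 and 0.516 CPM in the CCI males, at 0.846 and 2.22 CPM in the naïve females, and at 0.465 and 0.409 CPM in the CCI females. Unlike Ngp, Fcnb was not higher in naïve male 2 (26 counts) than in the CCI males (30 and 25 counts). Its log2 fold change after CCI was −1.81 ± 0.520 (SE) in females and 0.66 ± 0.561 in males (edgeR adjusted p 0.0683 and 0.404). Of 16 B lineage genes 2 had an identifier, and their summed level was 0.268 and 2.59 CPM in the naïve males, 0.702 and 1.13 CPM in the CCI males, 5.39 and 6.17 CPM in the naïve females, and 0.336 and 1.15 CPM in the CCI females. EdgeR called both lower in females. With the spread estimated over all 8 libraries, 0 of these 5 genes were called lower in females, beside 307 of 16988 genes. Most of these female calls were also lost without CCI female 1 or CCI female 2. Few of all genes passed in those fits, so they could not judge these genes. In males Ngp gave −1.85 ± 1.34 and Cd79b −0.86 ± 1.17 (SE, edgeR adjusted p 0.329 and 0.606). No white cell gene named here was at 0 in any library. The part of white cells in the hemoglobin result was not tested.

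Platelet genes only partly resembled hemoglobin. Of 12 symbols 3 had an identifier. EdgeR called 2 of the 3 lower in females after CCI, beside 340 of 16988 genes called lower. Clec1b, a platelet receptor, stood at 0.0765 and 0.367 CPM in the naïve males, 1.01 and 1.11 CPM in the CCI males, 0.613 and 1.80 CPM in the naïve females, and 0.155 and 0.102 CPM in the CCI females. It was higher in both CCI males than in naïve male 2, unlike the globins. By edgeR Clec1b fell in females after CCI (−3.20 ± 0.683 SE, adjusted p 0.0298) and was not called in males (2.24 ± 0.708, adjusted p 0.0618). The female call was lost without CCI female 1 or CCI female 2, but few of all genes passed in those fits, so they could not judge it. Pf4, a platelet chemokine, was named after its values were seen. It stood at 2.28 and 4.02 CPM in the naïve males and 4.27 and 4.81 CPM in the CCI males. In naïve females it stood at 4.06 and 8.82 CPM, and in CCI females at 2.38 and 2.23 CPM. By edgeR it fell in females after CCI (−1.49 ± 0.352 SE, adjusted p 0.0409) and was not called in males (0.53 ± 0.305, adjusted p 0.232). Itgb3, an integrin of platelets and other cells, was not called in females (−0.22 ± 0.129 SE, edgeR adjusted p 0.295). It fell in males (−0.95 ± 0.120 SE, edgeR adjusted p 0.00689). The fit without CCI male 1, in which no gene at all passed, could not judge this fall. No T cell or endothelial gene of the lists (12 each) had an identifier here.

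**Figure D4:**
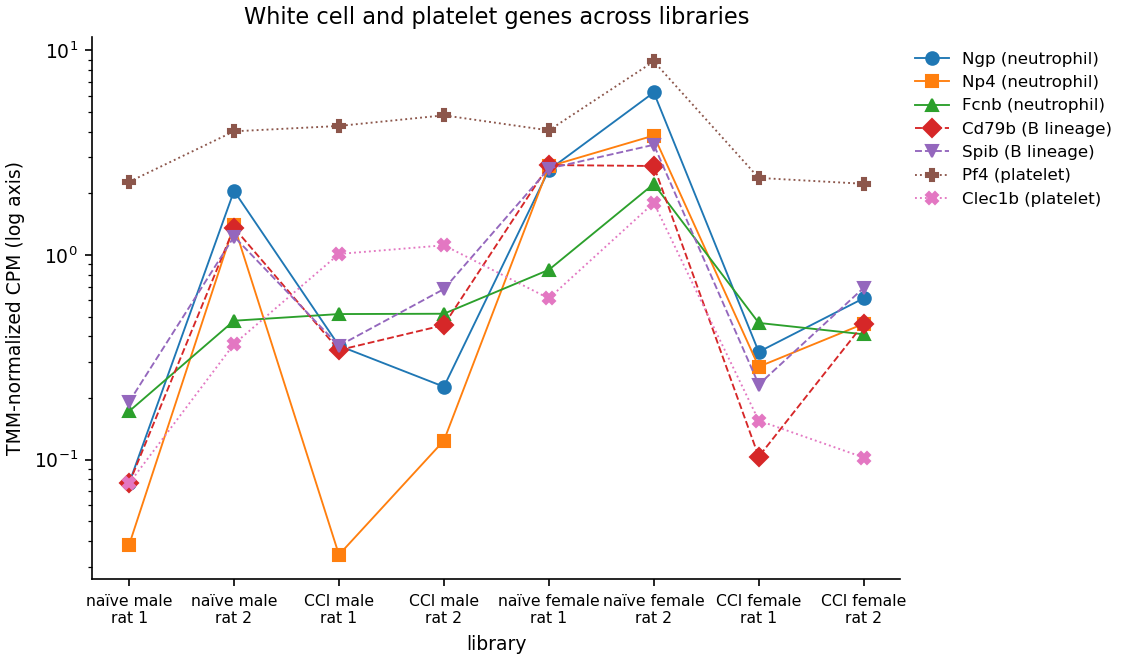
TMM-normalized CPM (log axis) of neutrophil genes (solid lines), B lineage genes (dashed) and platelet genes (dotted) in the 8 libraries, with lines only to link the points of a gene. Ngp, Np4, Cd79b and Spib are higher in naïve male 2 and the naïve females than in the other 5 libraries, while Clec1b is higher in the CCI males than in naïve male 2. Np4 and Pf4, a platelet chemokine, were added after their values were seen.

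Genes of the ganglion itself are given for comparison. In males, edgeR called 7 of 8 sensory neuron genes higher, beside 9.05% of all genes, and 6 of 6 myelin genes lower, beside 12.5%. Summed myelin CPM was 13308 and 10922 in the naïve males 1 and 2, and 3420 and 3271 in CCI males, so that the naïve males lay close together where Hba2 differed by 11.4-fold. Both satellite glia genes with an identifier were called lower in males, and of 5 pericyte and smooth muscle genes 3 were called higher and 1 lower. These male calls were lost without CCI male 1, a fit in which edgeR called 0 of all genes tested. In females 3 of 6 myelin genes, 1 of 2 satellite glia genes and 1 of 5 pericyte and smooth muscle genes were called, all lower, beside 340 of 16988 genes called lower. No sensory neuron gene met both limits of a call in females, where the list had a median log2 fold change of 0.20. Most of these female calls were lost without CCI female 1 or CCI female 2. Few of all genes passed in those fits, so they could not judge these genes.

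The 3 other globins were the closest to the 3 hemoglobin genes among genes of moderate or high level. Likeness was the Pearson r over the 8 libraries between a gene's log2 CPM and the mean of the 3 genes, among the 13080 genes whose log2 CPM averaged 1 or more. The points share their library, its scaling and the gap between high and low libraries, so r is a description. The closest were Hbb (0.996), Hba-a1 (0.988), Hba1 (0.982) and Alas2 (0.979), with Slc4a1 sixth at 0.968. The other 5 of the closest 10 had no symbol here. ENSRNOG00000011557 and ENSRNOG00000011483 had the widest ranges among these, at 6.07 and 6.25 log2 units from lowest to highest library. In all, 16 genes reached an r of 0.9. Among genes with a lower mean, r was 0.973 for Ngp, above that of Slc4a1, and 0.940 for Cd79b, 0.934 for Spib and 0.924 for Np4. Among the members, r was 0.964 for Hbb-b1 with Hba2, 0.971 for Hbb-b1 with LOC100134871 and 0.959 for Hba2 with LOC100134871.

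Within a library, the Hba2 share of the alpha reads was steady. The makeup of the beta reads differed by sex and, in the males and the CCI females, between the rats of a group. Hba2 took 26.1% to 28.2% of alpha globin counts (Hba2, Hba1 and Hba-a1) in all 8 libraries. The small Hba-a1 share was 3.05% and 2.31% in naïve males 1 and 2, and 3.08% and 1.96% in CCI males 1 and 2. In neither pair did the 95% counting intervals overlap. LOC100134871 took 13.6% and 18.9% of beta globin counts (Hbb-b1, LOC100134871 and Hbb) in naïve males, 16.8% and 22.5% in the CCI males, 25.0% and 25.2% in the naïve females, and 26.4% and 23.1% in the CCI females. All 4 females were above all 4 males, although the 95% counting intervals of CCI male 2 (21.4% to 23.6%) and CCI female 2 (22.0% to 24.3%) overlapped. Hbb-b1 took 11.8% and 8.14% in the naïve males, 11.0% and 7.82% in the CCI males, 11.3% and 11.0% in the naïve females, and 10.3% and 8.91% in the CCI females, where the sexes overlapped. These shares compare libraries and not genes, because counts were not divided by transcript length.

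**Figure D5:**
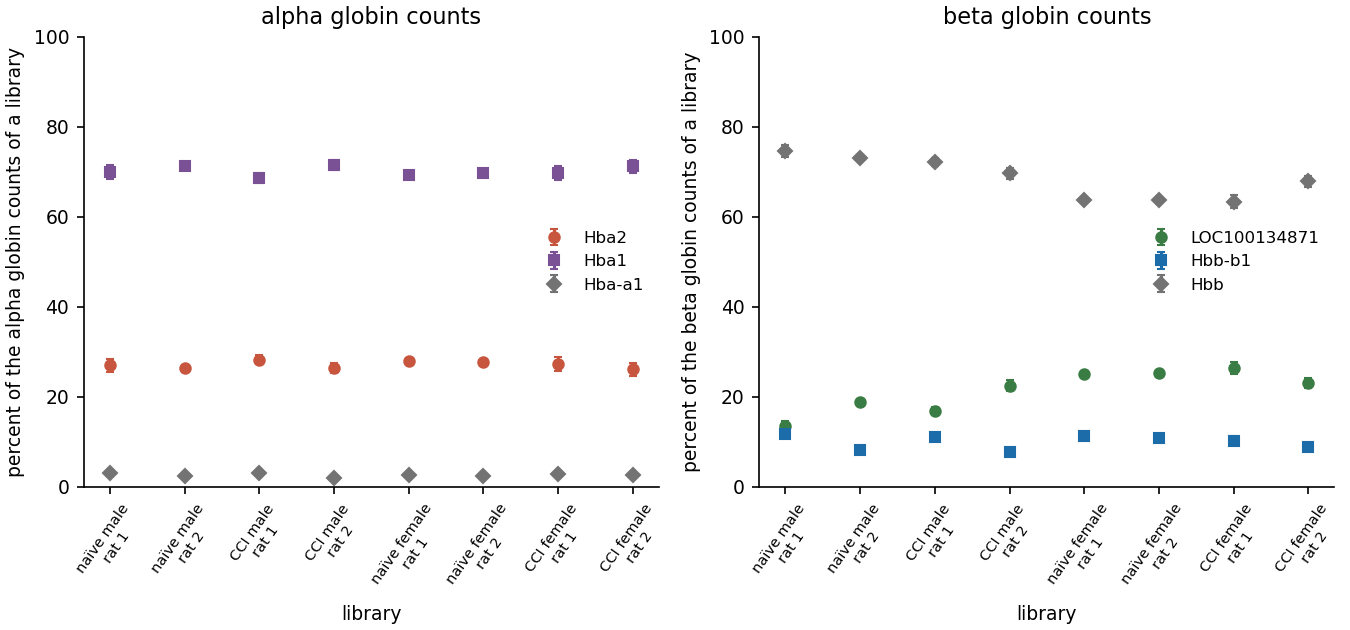
Share of each gene in the alpha globin counts (left) and beta globin counts (right) of every library, in percent, with exact 95% intervals for counting error. Hba2 stays between 26.1% and 28.2%, while LOC100134871 runs from 13.6% in naïve male 1 to 26.4% in CCI female 1.

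The ratio of alpha to beta globin counts was likewise split by sex. It was 0.883 and 1.02 in the naïve males, 0.887 and 1.18 in the CCI males, 0.645 and 0.722 in the naïve females, and 0.747 and 0.662 in the CCI females. Every male was above every female, and among males the number 1 rats were below the number 2 rats. These ratios were described without a test and both splits were noticed after the values were seen. Beta globin genes are close copies of each other. For them and for the alpha globin genes, which gene a shared read was counted for is not given in the sources used here. For Alas2, counts per 100 counts of the 3 genes ran from 3.07 in naïve female 1 to 5.58 in naïve male 2. For Slc4a1 they ran from 0.851 (interval 0.485 to 1.39) in naïve male 1 to 2.21 (2.01 to 2.42) in naïve male 2.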

How the data were processed

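Poly(A) RNA of 8 DRG libraries, 1 rat each, was sequenced as strand-specific paired ends in 2 batches; which library belongs to which batch is not given in the sources used here. The authors aligned reads to rn6 with HISAT2, removed ribosomal RNA reads and used featureCounts on Ensembl genes; what they deposited is raw counts without batch correction. CASAVA 1.8.2 is named in the submitters' processing notes. The deposited column names of naïve male 1 and CCI male 1 carry an added letter that no source explains.

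Counts were tested with edgeR 4.0.16 (R 4.3.3) by glmQLFit and glmQLFTest after TMM scaling, on genes that filterByExpr kept with a minimum count of 10 and a minimum total of 15 over all 8 libraries. Each comparison used its own 4 libraries, and the interaction all 8. A call needed a Benjamini-Hochberg adjusted p below 0.05 and an absolute log2 fold change above 0.5 (no fold limit for the interaction). SE was taken as the log2 fold change over the square root of F. Log2 CPM used a prior count of 2. DESeq2 1.42.0, other scaling, no filter, another quasi-likelihood fit, the replicate number as a block and each library left out were alternatives. The fit was tested on simulated data.

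The hemoglobin genes and all lists were chosen with earlier results of these data known. Symbols came from the study's tables and cover 1961 of 32623 identifiers; list genes without a symbol were not analysed here. Named genes were the 3 members, other globins, Alas2 and Slc4a1, the highest and lowest genes of each list by female fold change, and the 10 genes most like the members. For lists of ganglion and muscle genes only counts, medians and summed levels are given, apart from Mb.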

Additional observations from a re-analysis of the deposited data

How the results depend on the processing

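Outside the settings that leave out a library, no alternative changed the direction of a hemoglobin gene in males, naïve rats or the interaction, or brought 1 past the threshold. With each library left out in turn, the number of the 3 genes called ran from 0 to 3 in males, from 0 to 3 between naïve rats, from 0 to 1 between CCI rats and from 0 to 3 for the interaction. In males the log2 fold change then ran from −2.31 to 0.51 for Hbb-b1, from −2.50 to 1.02 for Hba2 and from −2.52 to 1.31 for LOC100134871; naïve males 1 and 2 set these limits. Between CCI rats, Hbb-b1 ran from −0.36 to 0.48. The call of Hba2 between CCI rats was also lost (0 of 3 genes) with the spread estimated over all 8 libraries and with the replicate number as a block (edgeR, log2 fold change −0.56, adjusted p 0.102). Without CCI male 1, edgeR called 0 of all 16988 genes in males, so that fit says nothing about the members.

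For same-numbered rats neither litter nor day is named, and an added letter is shared only by the column names of naïve male 1 and CCI male 1. Their deviations correlated at 0.731 between naïve and CCI males and at −0.020 to 0.142 between the other groups. With the number as a block, 0 of 3 genes were called in males (−1.01, −0.80 and −0.71 for Hbb-b1, Hba2 and LOC100134871), and 4478 of all genes in place of 3663. In females 2 rats per group limit the precision. With the spread estimated over all 8 libraries, naïve males included, 0 of the 3 other globins were called lower there in place of 3. The naïve males differed by 9.91-fold for Hbb and 11.9-fold for Hba1, and the naïve females by 1.43-fold and 1.61-fold.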
